A study of Mus musculus with 6 samples.

Results

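Fibroblasts with transcripts of the cell division programme were examined on the single-cell chip labelled fibroblasts, 1 library from a study that grew mouse cardiomyocytes and cardiac fibroblasts together. Wells were chosen by their marker counts, and a well counted as cycling when it held at least 500 non-mitochondrial genes, at least 5 of the 8 markers Mki67, Top2a, Cdk1, Ccnb1, Ccna2, Cenpf, Prc1 and Kif11, and at least 10 unique molecular identifiers (UMIs, which count single transcript molecules) over them. Of 1044 kept wells, 339 were cycling, and 299 wells with 1 or none of the markers served as reference. The whole series held 2482 wells with counts on this chip and on a chip of cardiomyocytes. The kept wells fell into 8 Types, the well names given by the authors: AF1, AF2, AF0_1 and AF0_2 for fibroblasts of adult hearts, and NF1, NF2, NF0_1 and NF0_2 for fibroblasts of hearts at postnatal day 1. The strain was C57BL/6, and the labels name no engineered allele and no drug for any Type. The labels do not say what the 0 in a name stands for, whether those wells were grown with cardiomyocytes, or whether Types were separate cultures or animals. Per the study's methods, isolated fibroblasts were not used fresh but passaged in culture to raise their purity before co-culture. The methods also state that AFs were plated at a higher ratio to cardiomyocytes than NFs, and that co-cultured cells were dyed and sorted before dispensing.

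Because every well came from 1 library, no test was run over wells, and intervals cover counting error only. A kept well held a median of 32047.5 UMIs, with a range from 1110 to 458262. The 5 wells dispensed as negative controls on this chip held a median of 217 UMIs, and 0 of the 10 negative-control wells of both chips met the marker rule. The chips shared 269 well barcodes, which come from a common barcode set. No doublet caller was run.

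The cell cycle is driven by waves of transcription. At the passage from G1 into S phase, cyclin E with CDK2 inactivates the retinoblastoma protein and frees E2F factors, which turn on genes for nucleotide supply and DNA replication. Later, MuvB complexes with B-MYB and FOXM1 act through cell cycle genes homology region (CHR) elements. They turn on genes of the spindle, the kinetochore and cytokinesis, whose promoters often hold CCAAT elements too. Cardiac fibroblasts divide actively in the neonatal heart, are mostly quiescent in the healthy adult heart, and re-enter the cycle when they are injured or placed in culture.

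The rule fixed the levels of its own markers, which are given as a description. Mki67, the proliferation antigen that coats mitotic chromosomes, was detected in 93.2% of cycling wells and in 37.4% of all other kept wells. Prc1, which bundles microtubules of the central spindle, was detected in 93.5% of cycling wells, and Top2a, which untangles replicated DNA, in 92.3%. Kif11, the motor that separates spindle poles, and Ccna2, the cyclin of S and G2 phase, were the least often detected, in 50.4% and 51.9% of cycling wells. All 8 markers were present in 48 cycling wells and 5 of them in 108. The summed level of Cdk1, the kinase that drives entry into mitosis, was 97.3 CPM (UMIs of a gene per 1000000 UMIs of all genes) in cycling wells of AF0_1, 119.6 in AF0_2, 206 in AF1 and 246 in AF2. It was 158 CPM in NF0_1, 110.4 in NF0_2, 221 in NF1 and 159 in NF2. The wells of AF1, AF2 and NF1 thus held the 3 highest Cdk1 levels and AF0_1 the lowest.

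Just inside the rule, the 108 cycling wells with 5 markers held between 11 and 173 UMIs over the markers, with a median of 39.5. Just outside it, the 115 wells with 4 markers held between 4 and 133, with a median of 21. Per 10000 UMIs the medians were 8.51 and 6.02 marker UMIs. A further 2 wells held 5 or more markers but only 7 and 9 UMIs over them and stayed outside.

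Sequences before the start sites show what the markers and their companions have in common. For 7 of the 8 markers the RefSeq promoter table (GRCm38.p6) held a window from 250 bases before to 50 bases after the start site. Capitals mark CHR elements (TTTGAA or TTTAAA), the CCAAT box (CCAAT) and an E2F motif (TTTGGCGC, TTTCCCGC, TTTGGCGG, TTTCGCGC, TTTCCCGG or TTTGCCGC), each on either strand. Examples of mitotic genes are the windows of Cdk1 at chr10:69352863-69353162 on the minus strand and Ccnb1 at chr13:100786437-100786736 on the minus strand. Another is Hmmr, a spindle assembly factor, at chr11:40733388-40733687 on the minus strand. Mcm5, a subunit of the replicative helicase, at chr8:75109259-75109558 on the plus strand is an example of replication genes. Pcna, the sliding clamp, at chr2:132253131-132253430 on the minus strand is another. In the Mcm5 window the second E2F match is on the opposite strand and overlaps the first, and the Pcna window holds no CHR or E2F match. These examples are not typical in every motif. Mcm5 is the 1 of 24 replication windows with CHR, CCAAT and E2F matches together, and Cdk1 the 1 of 7 marker windows with an E2F match. Not all mitotic genes are alike: the window of Birc5, not shown, holds a CHR and an E2F match but no CCAAT match.
Cdk1: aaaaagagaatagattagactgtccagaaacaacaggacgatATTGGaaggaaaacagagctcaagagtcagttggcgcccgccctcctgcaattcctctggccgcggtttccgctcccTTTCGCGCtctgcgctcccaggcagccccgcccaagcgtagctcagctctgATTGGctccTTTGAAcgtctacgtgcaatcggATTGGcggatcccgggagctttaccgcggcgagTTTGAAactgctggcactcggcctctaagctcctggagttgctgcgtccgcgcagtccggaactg
Ccnb1: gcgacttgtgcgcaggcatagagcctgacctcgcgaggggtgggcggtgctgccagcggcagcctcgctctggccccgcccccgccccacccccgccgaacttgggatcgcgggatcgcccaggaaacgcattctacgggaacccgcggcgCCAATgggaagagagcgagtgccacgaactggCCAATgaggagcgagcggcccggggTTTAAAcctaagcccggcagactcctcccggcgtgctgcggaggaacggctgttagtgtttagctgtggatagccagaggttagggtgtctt
Hmmr: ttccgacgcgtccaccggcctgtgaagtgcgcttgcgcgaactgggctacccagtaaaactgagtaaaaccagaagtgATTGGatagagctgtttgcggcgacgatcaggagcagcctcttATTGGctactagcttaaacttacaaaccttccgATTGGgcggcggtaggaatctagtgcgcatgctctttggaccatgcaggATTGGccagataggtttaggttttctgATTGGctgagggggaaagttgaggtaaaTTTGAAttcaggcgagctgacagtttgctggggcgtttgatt
Mcm5: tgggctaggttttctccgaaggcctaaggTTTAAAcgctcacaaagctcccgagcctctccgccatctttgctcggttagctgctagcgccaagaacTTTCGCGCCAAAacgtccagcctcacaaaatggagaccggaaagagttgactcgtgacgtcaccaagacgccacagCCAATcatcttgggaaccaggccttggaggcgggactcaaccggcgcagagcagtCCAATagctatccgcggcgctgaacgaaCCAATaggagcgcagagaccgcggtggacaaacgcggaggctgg
Pcna: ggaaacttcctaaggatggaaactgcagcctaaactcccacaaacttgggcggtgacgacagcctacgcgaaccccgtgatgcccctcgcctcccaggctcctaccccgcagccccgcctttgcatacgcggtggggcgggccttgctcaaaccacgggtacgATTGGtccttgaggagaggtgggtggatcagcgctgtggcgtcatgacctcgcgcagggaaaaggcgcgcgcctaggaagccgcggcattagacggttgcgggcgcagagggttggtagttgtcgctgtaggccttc

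A CHR match was present in 7 of 7 marker windows, against 27.8% of 27025 windows of all genes, and a CCAAT match in 7 of 7, against 37.9%. Among the 34 windows found for 40 mitosis genes, 76.5% held a CHR match and 70.6% a CCAAT match, but 5.88% an E2F match. Among the 24 windows found for 30 DNA replication genes, 29.2% held a CHR match, 66.7% a CCAAT match and 37.5% an E2F match, against 4.04% of all windows. The 20 windows of extracellular matrix genes held CHR in 30.0% and CCAAT in 35.0%, and an E2F match in 0 windows. A match is a description of these letters and not evidence of a bound factor.

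To ask where dividing fibroblasts were found, the share of cycling wells was compared between Types. It was 72.4% in AF0_2 (84 of 116 wells, exact Clopper-Pearson 95% interval 63.3 to 80.3) and 44.2% in AF0_1 (34 of 77, 32.8 to 55.9). AF1 held 30.2% (39 of 129, 22.5 to 38.9) and AF2 31.9% (37 of 116, 23.6 to 41.2). Among neonatal Types the share was 35.1% in NF2 (33 of 94, 25.5 to 45.6), 31.9% in NF0_2 (51 of 160, 24.7 to 39.7) and 21.0% in NF1 (35 of 167, 15.1 to 27.9). NF0_1 was lowest with 14.1% (26 of 185, 9.39 to 19.9). Only AF0_2 had an interval above those of all other Types, and the intervals of AF1, AF2, NF0_2 and NF2 overlapped.

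These shares moved with sequencing depth. Cycling wells held a median of 53531 UMIs and reference wells 13144, and in each Type the cycling wells were the deeper ones. When each well was thinned to 10000 UMIs, leaving out 171 shallower wells, the rule found 126 cycling wells of 873. The share was then highest in NF1, with 22.4% (14.9 to 31.5), and AF2, with 19.8% (12.7 to 28.7), and lowest in AF0_1, with 5.71% (1.58 to 13.99). A looser rule for thinned wells, 3 markers and 5 UMIs, chosen after the data were seen, gave 323 wells, and its highest share was again in AF0_2, with 56.9% (47.4 to 66.1). Summed over all kept wells of a Type, the 8 markers reached 1082 CPM in AF2, 1042 in NF1, 939.9 in AF1 and 798 in NF2. They reached 749 CPM in AF0_1, 731 in AF0_2, 595 in NF0_1 and 475 in NF0_2. The order of shares in full-depth wells differed from that of these levels, although NF0_1 was low in both. No order of the Types in the frequency of division was therefore read from the shares.

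**Figure D1:**
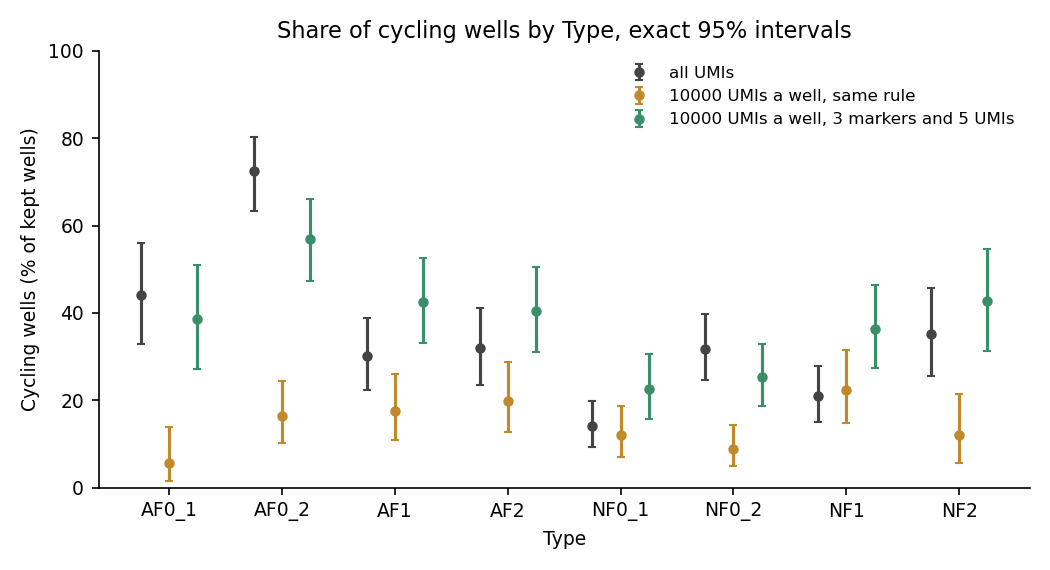
Share of kept wells called cycling (y axis, percent) in each of 8 Types (x axis), with exact 95% intervals as bars, for full-depth wells and for wells thinned to 10000 UMIs under the same and a looser rule. AF0_2 falls from 72.4% to 16.4% under the same rule after thinning, and NF1 moves only from 21.0% to 22.4%.

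By origin, 194 of 438 AF wells (44.3%, 39.6 to 49.1) and 145 of 606 NF wells (23.9%, 20.6 to 27.5) were cycling. After thinning the shares were 15.8% (12.3 to 19.7) and 13.3% (10.4 to 16.7), intervals that overlapped. With the looser rule they were 45.5% (40.5 to 50.5) and 29.8% (25.7 to 34.2). Median depth was 40223 UMIs in AF wells and 26837.5 in NF wells.

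Among cycling wells, how much of the transcriptome the markers took up varied from 0.479 to 80.2 marker UMIs per 10000 UMIs, with a median of 11.5. The median was 24.2 in AF2, 21.8 in NF1, 17.9 in AF1 and 17.9 in NF0_1. It was 9.82 in NF2, 8.96 in AF0_1, 7.89 in AF0_2 and 6.88 in NF0_2. The median was thus higher in these first 4 Types than in the rest, although single wells of all Types overlapped. The marker level fell with depth over the 339 wells (Spearman rho = -0.45), a description over wells that share 1 library.

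Genes outside the rule were compared between cycling and reference wells by their CPM in summed UMIs, and a gene was called at a 2-fold ratio. Of 11300 genes kept, 1119 were called higher (9.9%) and 432 lower (3.82%). Of the 39 mitosis genes kept, 37 were called higher and 0 lower, 31 were higher in each of the 6 Types that had at least 5 cycling and 5 reference wells (5.27% of all genes were, and 1.94% were lower in each), and the median log2 ratio was 2.05, against 0.13 for all genes. The list shares the wells and the programme of the rule's markers and is given as a description.

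Among genes with at least 50 CPM in the higher group and 1 direction in all 6 Types, the gene with the largest ratio was Knl1, the scaffold of the outer kinetochore, at 57.4 CPM in cycling and 5.14 CPM in reference wells, a ratio of 11.2 (8.16 to 15.7). Its level in cycling wells was 50.2 CPM in AF0_1, 24.0 in AF0_2, 90.6 in AF1, 143 in AF2, 29.4 in NF0_1, 33.6 in NF0_2, 136 in NF1 and 25.5 in NF2. In reference wells it lay between 1.14 and 11.9 CPM, so the cycling and reference values did not overlap. Hmmr, whose promoter is shown above, was at 205 CPM against 28.0 (ratio 7.32, 6.39 to 8.42), from 106 to 427 CPM over the cycling wells of the 8 Types and from 12.8 to 65.8 over the reference wells of 6. Cenpe, the kinetochore motor that moves chromosomes to the metaphase plate, was at 188 against 31.2 CPM (ratio 6.02, 5.29 to 6.88). Its lowest cycling Type, at 112 CPM, lay above its highest reference Type, at 89.2 CPM.

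Of the 12 largest rises under those limits, 3 were subunits of the chromosomal passenger complex. Incenp, its scaffold, was at 51.7 CPM in cycling against 8.996 in reference wells (ratio 5.74, 4.51 to 7.41). Birc5 (survivin) was at 187 against 35.9 CPM (ratio 5.22, 4.62 to 5.91). Cdca8 (borealin) was at 111.4 against 23.5 CPM (ratio 4.74, 4.08 to 5.53). For Incenp the cycling and reference values of the Types did not overlap, whereas the reference wells of NF2 held 129 CPM of Birc5, above the cycling wells of AF0_1, AF0_2 and NF0_2. Aurkb, the kinase of the complex, lay under the CPM limit at 13.0 against 1.29 CPM, on 10 reference UMIs, with a log2 ratio of 3.33. Kif18b, a kinesin, and the phosphatase gene Cdc25c, each at 3.47, were under it too. Sgo1, the protector of centromeric cohesion, had a ratio of 4.90 (4.03 to 6.01), Tpx2, which activates Aurora A on the spindle, 5.60 (4.90 to 6.43), and Anln (anillin), a scaffold of the cleavage furrow, 5.60 (4.65 to 6.81).

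The remaining 3 of the 12 largest rises belonged to other functions. Clspn (claspin), the checkpoint adaptor at replication forks, had a ratio of 7.96 (6.02 to 10.7). Pbk, a mitotic kinase, had one of 6.34 (5.34 to 7.57). Lockd, a long noncoding RNA transcribed near Cdkn1b, rose from 13.4 to 101 CPM, a ratio of 7.53 (6.19 to 9.25), while Cdkn1b itself, the p27 inhibitor of CDKs, was at 32.9 CPM in cycling and 44.5 in reference wells.

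**Figure D2:**
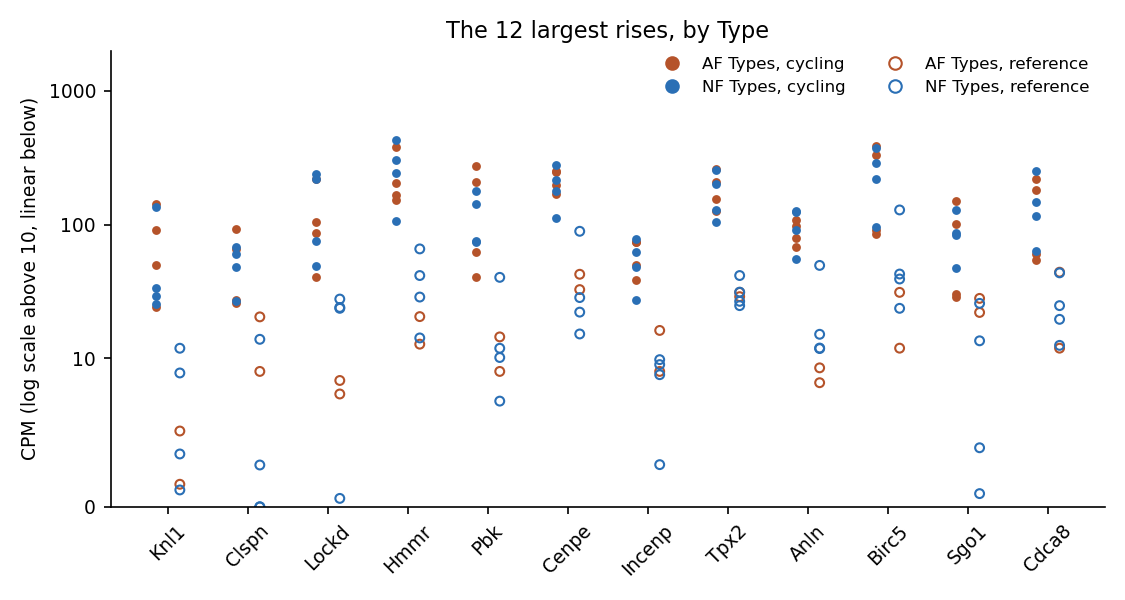
CPM (y axis, log scale above 10 and linear below) of the 12 genes with the largest ratio of cycling to reference wells among those with at least 50 CPM in the higher group and 1 direction in all 6 Types, by Type, with filled points for cycling wells of 8 Types and open points for reference wells of 6 Types, in one colour for AF and another for NF. For Knl1, Hmmr and Cenpe the filled points all lie above the open ones, whereas 1 reference point of Birc5, at 129 CPM, lies among the cycling points.

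DNA replication genes were higher in cycling wells too, by a smaller step. Because most of the rule's markers act in mitosis, the size of this step beside that of mitosis genes is a description only. Of 28 genes kept, 20 were called higher and 0 lower, against 9.9% and 3.82% of all genes. Of the 28, 19 were higher in each of the 6 Types, and the median log2 ratio was 1.33. Rrm1 and Rrm2 encode the subunits of ribonucleotide reductase, which makes the deoxynucleotides. Rrm1 was at 170 CPM in cycling and 58.9 in reference wells, and over Types the cycling values, from 113 to 192, lay above the reference values, from 41.6 to 78.3. Rrm2 was at 82.4 against 25.4 CPM. Ccne2, a cyclin E that drives entry into S phase, was at 94.2 against 25.1 CPM, a log2 ratio of 1.91 with a mean of 2.72 over Types.

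Pcna was at 95.01 CPM in cycling wells and 44.5 CPM in reference wells. By Type it was at 40.2 CPM in AF0_1, 45.7 in AF0_2, 95.4 in AF1, 177 in AF2, 45.3 in NF0_1, 114 in NF0_2, 148 in NF1 and 141 in NF2, while its reference values, from 27.6 to 66.4 CPM, overlapped the 3 lowest of these. The subunits of the MCM helicase did not move alike. Mcm5 had a log2 ratio of 1.81, Mcm3 one of 0.98, Mcm2 0.82, Mcm7 0.66, Mcm4 0.63 and Mcm6 0.11, so only Mcm5 passed 2-fold in the sum, while Mcm2, Mcm3 and Mcm5 did as means over Types, at 1.497, 1.38 and 1.90. Mcm6 was at 45.1 CPM in cycling and 41.9 CPM in reference wells and was higher in cycling wells of 4 of 6 Types.

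The balance of replication and mitosis genes varied from well to well. Its level in cycling wells depends on a rule made mostly of mitotic markers and is given as a description. Of the UMIs of both lists, replication genes took a median of 32.2% per cycling well, with quartiles of 21.1% and 44.1% and a range from 7.33% to 85.2%. In 48 of 339 cycling wells (14.2%) they took more than 50%. The median by Type ran from 21.4% in NF0_1 to 41.0% in NF0_2. Over cycling wells the summed levels of the lists had a Spearman rho of 0.47, a description over wells of 1 library. By Type it was 0.49 in AF0_1, 0.43 in AF0_2, -0.16 in AF1, -0.23 in AF2, 0.12 in NF0_1, 0.62 in NF0_2, -0.25 in NF1 and 0.08 in NF2. In 43 of 299 reference wells (14.4%) replication genes reached the cycling median of 1268 CPM with at least 10 UMIs, and in 22 (7.36%) mitosis genes reached their cycling median of 2800 CPM.

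**Figure D3:**
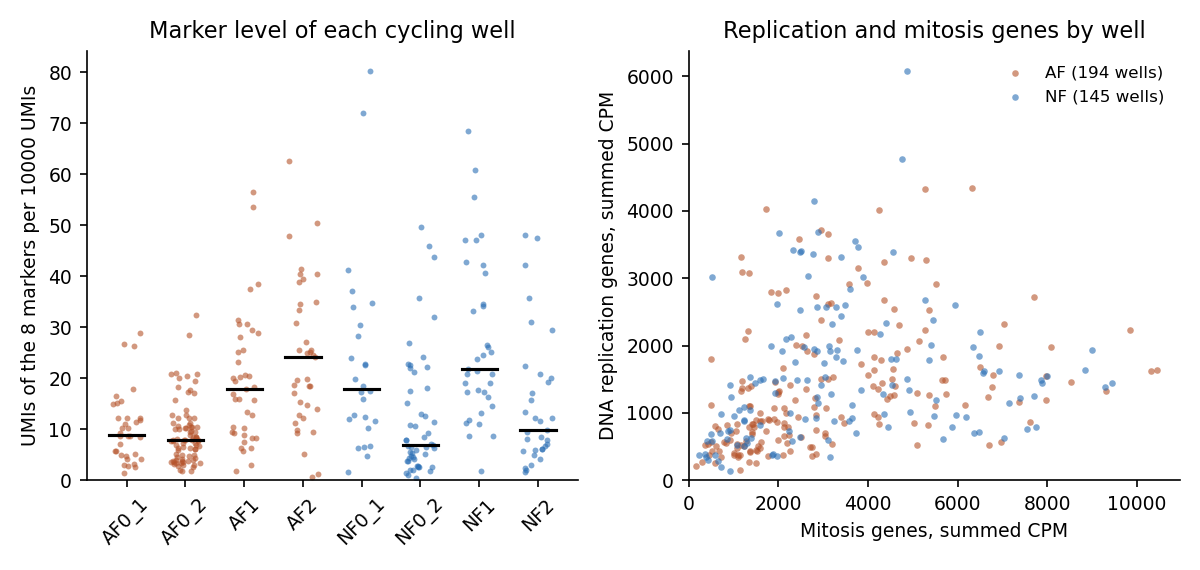
Left, UMIs of the 8 markers per 10000 UMIs (y axis) in each of 339 cycling wells by Type (x axis), with the median as a bar. Right, summed CPM of DNA replication genes (y axis) against mitosis genes (x axis) in the same wells, coloured by origin. Single wells run from 170 to 10439 CPM for mitosis genes and from 132 to 6081 CPM for replication genes.

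Wells were also grouped by the number of markers detected. The classes rest on the rule's own markers, so the rise of mitosis genes along them is a description. Mitosis genes summed to 759 CPM in wells with 0 markers, 1383 CPM in wells with 4, 1788 CPM with 5, 3105 CPM with 7 and 5019 CPM with 8. Replication genes summed to 659 CPM with 0 markers, 555 with 1, 983 with 3, 970 with 4 and 1877 with 8, and did not rise at each step. Extracellular matrix genes stayed between 19365 and 22858 CPM over the same classes. Median depth rose along them from 9280.5 to 78173 UMIs, and its part in the gradient was not tested.

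Genes of chromosome structure and DNA repair share the wells and the programme of the rule's markers and are given as a description. Of 18 genes of chromosome structure, 10 were called higher and 0 lower, against 9.9% and 3.82% of all genes. Their median log2 ratio was 1.11. Among subunits of condensin, which compacts mitotic chromosomes, Ncapg2 had a log2 ratio of 2.86, Ncaph 2.70, Ncapd2 2.00, Ncapd3 1.51 and Smc2 1.51, each higher in all 6 Types, while Ncapg had one of 1.19 and Smc4 one of 0.92. Suv39h1, a histone methyltransferase, had one of 2.07. Hmgb2, a chromatin protein, was at 176 against 60.0 CPM, whereas its relative Hmgb1 was at 34.7 against 32.5 CPM. Of 11 DNA repair and checkpoint genes kept, 8 were called higher, with a median of 1.74. Brca2, which acts in homologous recombination, had a log2 ratio of 2.68 and was higher in all 6 Types. Brca1, which acts in the same pathway, had a log2 ratio of 3.32 on 14 reference UMIs and was higher in the 5 Types where it could be measured.

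Regulators upstream of S phase were followed as a list of their own. Of 23 cyclin D, CDK inhibitor and Rb family genes kept, 10 were called higher in the sum, against 9.9% of all genes. Their median log2 ratio was 0.83, but the mean over Types had a median of 0.41. That mean passed 2-fold higher for 7 (7.71% of the 11163 genes with such a mean did) and lower for 2 (6.2% did). The sums are affected by the mix of Types, since AF0_1 and AF0_2 gave 118 of 339 cycling wells and 6 of 299 reference wells. Cdkn2a, the Ink4a/Arf locus, illustrates it. It was called higher in the sum at a log2 ratio of 1.70, but its mean over the 3 Types where a ratio could be given was -1.98, while cycling wells held 38.7 CPM in AF0_1 and 34.4 in AF0_2 and at most 1.84 in the other Types.

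Within this list, Foxm1, the transcription factor of the G2 and M programme, was higher in all 6 Types, with a mean log2 ratio of 1.78. Cdkn2c (p18) was higher in all 6 as well, with a mean of 1.98 on 13 reference UMIs. Cdk6, a partner of D cyclins, was lower in all 6 Types, with a mean of -1.20, but at -0.08 against all other kept wells. Cdkn1a (p21), the CDK inhibitor induced by p53, was at 789 CPM in cycling wells and 793 CPM in reference wells. Ccnd1 was at 119.1 against 97.9 CPM. Ccnd2 was at 1676 against 1177 CPM in the sum, but had a mean log2 ratio of -0.37 over Types and was higher in 2 of 6.

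Genes linked with cell cycle exit gave no common direction. Of 14 quiescence genes, 2 were called higher and 2 lower, and the median log2 ratio was 0.01. Over all genes 9.9% were called higher and 3.82% lower. The 2 higher genes were Igfbp4 and Cdkn1c, the p57 inhibitor, at 8.60 against 3.08 CPM with 2 of 4 Types higher. Igfbp4, a binding protein of insulin-like growth factors, was at 73.5 CPM in cycling and 17.1 CPM in reference wells. By Type it was at 42.5 against 21.3 CPM in AF1, 50.9 against 25.8 in AF2, 61.3 against 21.4 in NF0_1, 34.1 against 12.5 in NF0_2, 25.0 against 5.35 in NF1 and 50.4 against 5.95 in NF2, so it was higher in all 6. Txnip, an inhibitor of thioredoxin, was at 9.38 against 22.1 CPM and lower in 5 of 6 Types. Gas1, a growth arrest protein, was at 10.7 against 22.9 CPM in the sum and lower in 3 of the 5 Types with a ratio. Of 14 p53 targets, Mdm2, which encodes the ligase for p53, was called higher at a log2 ratio of 1.023 and was higher in 5 of 6 Types.

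Genes of fibroblast identity were at similar summed levels in cycling and reference wells, but single genes moved within Types. The 18 fibroblast identity genes summed to 12461 CPM in cycling and 12454 CPM in reference wells, with a median log2 ratio of -0.02. Of them, 0 were called in either direction, against 9.9% higher and 3.82% lower over all genes. As means over Types 0 passed 2-fold too, with a median of -0.14. These means ran from -0.70 for Gsn, at 0.62 in the sum, to 0.90 for Dcn, at -0.05 in the sum. Vim was detected in all 339 cycling wells, Col1a1 in 336, Pdgfra, the receptor for platelet-derived growth factor, in 140 and Tcf21, a transcription factor of the cardiac fibroblast lineage, in 120. Pdgfrb was lower in all 6 Types, with a mean log2 ratio of -0.46, as was S100a4, whose mean was -0.66 against 0.62 in the sum. Each of the 18 genes was detected in cycling wells. The cardiomyocyte gene Tnnt2 was detected in 262 of 339 cycling and 234 of 299 reference wells.

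Extracellular matrix genes differed little. Of 32 kept, 1 was called higher and 1 lower, against 9.9% and 3.82% of all genes, and the median log2 ratio was -0.15. Timp3, an inhibitor of metalloproteinases, was called higher in the sum at 1.65, but its mean over Types was 0.16, and its cycling level was 454 CPM in AF0_1, 407 in AF0_2 and between 36.9 and 134 in the other Types. Col14a1, a collagen that binds fibrils, was called lower, at 38.5 against 77.0 CPM, but its log2 ratio lay between -0.98 and -0.39 under each alternative tried, so the call was lost in all of them. Sparc, a collagen-binding matrix protein, was lower in all 6 Types by a mean log2 ratio of -0.27. Postn (periostin) was at 315 against 557 CPM in the sum, with a mean of -0.04 over Types. Of 12 contractile genes, Cnn1 (calponin) was called higher in the sum at a log2 ratio of 2.05, with 2 of 4 Types higher, and Actg2, a smooth muscle actin, lower at -1.12, with 3 of 6 Types lower. Acta2, the smooth muscle actin of myofibroblasts, was at 1726 against 1744 CPM. Among the genes named by the study, Dcn (decorin), a collagen-binding proteoglycan, was at 502 against 519.8 CPM in the sum with a mean log2 ratio of 0.90 over Types, Lamc1 at 103 against 112, Lama2 at 36.8 against 42.8, Pgf at 7.43 against 12.9, Cxcl12 at 202 against 259, Egr1 at 181 against 136 and Fabp4 at 12.4 against 10.02.

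**Figure D4:**
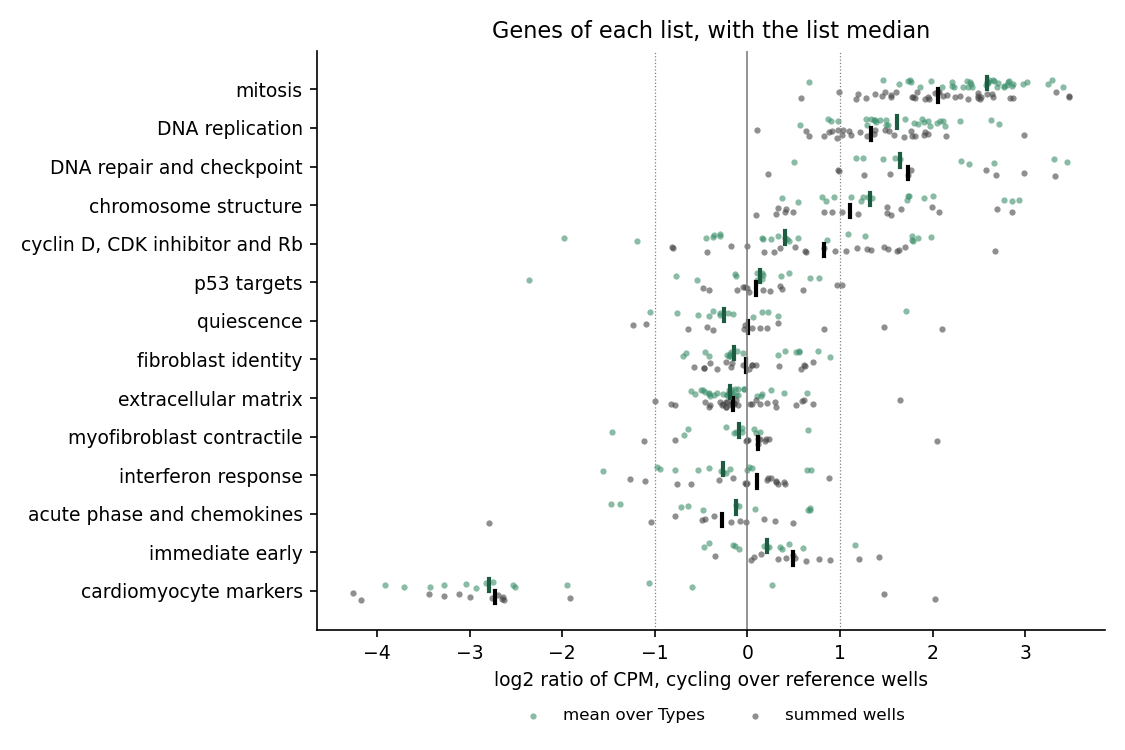
log2 ratio of CPM in cycling over reference wells (x axis) for the genes of 14 lists (y axis), from summed wells and as the mean over Types, with the list median as a bar and dotted lines at 2-fold. The mitosis and DNA replication medians, 2.05 and 1.33, lie past 2-fold, and those of fibroblast identity and extracellular matrix, -0.02 and -0.15, lie near 0.

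The calls of immune and stress genes are read against 9.9% higher and 3.82% lower over all genes. Of 18 interferon response genes, 0 were called higher and 2 lower, Gbp2 and Ifi27l2a, each with a ratio in 3 Types and lower in 2 of them. Of 12 acute phase and chemokine genes, 0 were called higher and 2 lower, the chemokine Ccl8 at 18.02 against 125 CPM and Saa3 at 181 against 371 CPM. The log2 ratio of Ccl8 was -2.79 in the sum, -0.95 as a mean over wells and -0.85 in wells of 20000 to 80000 UMIs, and 3 of 5 Types were higher. That of Saa3 was -1.04 in the sum, -0.69 as a mean over wells and -0.53 in Types with 5 reference wells, and 4 of 5 Types were lower. Of 13 immediate early genes, Dusp1, a phosphatase of MAP kinases, was called higher at 85.2 against 31.9 CPM, in 5 of 6 Types, and Egr2, a transcription factor, at 6.54 against 2.83 CPM, in 4 of 5. The 79 ribosomal protein genes had a median log2 ratio of -0.14, with 0 called. Mitochondrial transcripts took a median of 5.48% of UMIs in cycling and 7.498% in reference wells, and were lower in cycling wells in each of the 6 Types with at least 5 reference wells.

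Most cardiomyocyte markers were lower in cycling wells. Of the 12 genes with the largest fall under the same limits, the first 4 were Myl2, the ventricular light chain, at 85.8 CPM in cycling and 929 CPM in reference wells, Actc1, cardiac actin, at 71.4 against 482, Ttn (titin) at 81.2 against 525 and Tnni3, cardiac troponin I, at 122 against 763. In reference wells of AF1 and AF2 each of them stood at 34.0 CPM or less. S100a1, a calcium sensor of striated muscle, at 161 against 384 CPM, and Ndrg2, at 25.4 against 53.2 CPM, were among the 12 too. Of the 14 cardiomyocyte markers, 12 were called lower, and Nppa and Myl7, an atrial peptide and an atrial light chain, higher in the sum but in only 1 Type each.

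The levels of these genes moved with a small set of wells. The 14 cardiomyocyte markers summed to 1344 CPM in cycling and 6699 CPM in reference wells. By Type the sum ran from 94.3 to 3992 CPM in cycling wells and from 139 to 11606 CPM in reference wells, and 0 of the markers were undetected in cycling wells. Over 1% of UMIs came from these markers in 5 cycling and 25 reference wells, all of NF Types. Without those wells the log2 ratio of Myl2 was -0.96 in place of -3.44, that of Actc1 -0.67 in place of -2.76, that of Tnni3 -0.91 in place of -2.65 and that of S100a1 -0.24 in place of -1.25. Thus these 4 no longer passed 2-fold. The calls over all genes were then 1126 higher and 412 lower. Whether the markers came from sorted cardiomyocytes, doublets or free RNA was not tested.

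Other genes among the 12 falls did not rest on those wells. Imp3, a protein of ribosome assembly, was at 39.98 CPM in cycling and 86.5 CPM in reference wells, and its cycling values by Type, from 16.6 to 56.9 CPM, lay below its reference values, from 63.4 to 99.7 CPM. Its log2 ratio stayed between -1.45 and -1.07 over the alternatives tried. Lrp5, a Wnt co-receptor, had a log2 ratio of -1.21 and Mmp9, a gelatinase, one of -1.09. These were 0.08 and 0.02 when only wells of 20000 to 80000 UMIs were compared, and -0.93 and -0.87 after thinning to 10000 UMIs, so neither passed 2-fold in those settings. The transcripts Gm15417, Gm25162 and Stxbp3-ps, at -1.47, -1.30 and -1.07, complete the 12, but reads of predicted genes, small RNAs and pseudogenes can be shared with other loci and their counts are uncertain.

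Markers of other cell types were low in summed counts, but single ones were detected in part of the wells. The endothelial markers Cdh5 and Pecam1 were detected in 99 and 72 of 339 cycling wells, and in 33 and 24 of 299 reference wells. Detection was not adjusted for depth, and cycling wells were deeper, with a median of 53531 UMIs against 13144. In summed CPM the log2 ratios of Cdh5 and Pecam1 were -0.14 and 0.63. In AF against NF cycling wells, 6 of 8 endothelial markers were at least 2-fold higher and 0 lower. Over all genes, 14% were higher and 4.17% lower. The median log2 ratio of these markers was 1.74 in cycling and 2.83 in reference wells, and the Types of 1 of the 8 did not overlap. Endothelial markers summed to 382 CPM in cycling and 295 in reference wells, macrophage markers to 413 and 669, mural markers to 77.0 and 189 and epicardial markers to 139 and 44.2. Over 1% of UMIs came from macrophage markers in 4 cycling wells, and from endothelial, mural or epicardial markers in 0. By Type the macrophage sum in cycling wells was 1114 CPM in AF1 and 1070 in NF0_2 and at most 227 elsewhere. The epicardial sum was 415 CPM in AF0_1 and 299 in AF0_2 and at most 79.7 elsewhere, and its median log2 ratio of 2.25 became -0.22 as a mean over Types, which leaves out AF0_1 and AF0_2. Without the 9 cycling and 32 reference wells over 1% for any of these lists, 1157 genes were called higher and 420 lower, and the mitosis and DNA replication medians were 1.81 and 1.17. In these summed counts, fewer cells of a type and less RNA per cell cannot be told apart.

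To ask whether dividing fibroblasts differed with the age of the heart they came from, AF and NF cycling wells were compared. Of 11300 genes, 1579 were at least 2-fold higher in AF (14%) and 471 lower (4.17%). The values of the 4 AF Types lay entirely above those of the 4 NF Types for 511 genes (4.52%) and entirely below for 234 (2.07%). Wells of both origins had passed the same marker rule, so their levels of the division programme are given as a description only. The median log2 ratio of AF to NF was 0.13 for the 28 replication genes and 0.13 for the 39 mitosis genes, the same as for all genes, 0.13. In reference wells these medians were 0.53 for replication genes and 0.04 for mitosis genes. By Type the mitosis sum was 2038 CPM in AF0_1, 2053 in AF0_2, 4705 in AF1, 4507 in AF2, 3428 in NF0_1, 1850 in NF0_2, 4541 in NF1 and 2906 in NF2. AF and NF thus overlapped, and AF1, AF2 and NF1 were highest, as for the markers summed over all kept wells. In cycling wells alone the 8 markers summed to 1814 CPM in NF0_1 and 1751 CPM in AF1. Bub1 and Bub1b, which act in the spindle checkpoint, were called higher in AF at log2 ratios of 1.43 and 1.06, and Cdc25c, the phosphatase that activates Cdk1, lower at -1.21, but for all 39 mitosis genes the AF and NF Types overlapped.

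Interferon response genes were higher in AF than in NF cycling wells. Of 18 genes, 17 were at least 2-fold higher in AF cycling wells and 0 lower, 14 had Types that did not overlap, and the median log2 ratio was 4.005, against 4.30 in reference wells. Irf7, a transcription factor of the interferon response, was at 49.0 CPM in AF0_1, 29.9 in AF0_2, 33.3 in AF1 and 53.8 in AF2, and at 0 in NF0_1, 1.67 in NF0_2, 0.674 in NF1 and 1.66 in NF2. Bst2 (tetherin), which holds budding virus at the membrane, was between 58.8 and 108 CPM in AF Types and between 6.09 and 20.9 in NF Types. The difference was seen in reference wells as well as in cycling wells.

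Among the 8 genes highest in AF cycling wells by rule, Saa3 and Lcn2, acute phase proteins, were at 304 and 210.3 CPM in AF and at 1.43 and 1.82 CPM in NF. Most of that came from AF2, at 1277 CPM of Saa3 and 733 of Lcn2. In reference wells of AF, Saa3 stood at 1092 CPM. Plac8 was at 261 against 4.68 CPM and Xaf1, an interferon-induced gene, at 90.3 against 1.72. The other four, Gm10800, Gm10801, Gm10717 and Gm21738, are predicted genes whose counts are uncertain because near-identical copies share reads. Gm10800 was at 774 CPM in AF0_1, 126 in AF0_2, 766 in AF1 and 3.48 in AF2, against at most 1.66 in NF Types.

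Of the 8 lowest in AF, 6 were muscle genes: Tnni3, Cox8b, Actc1, Myh6, Myl2 and Tnnt2. Tnnt2, cardiac troponin T, was between 42.1 and 124 CPM in AF Types and between 797 and 1801 CPM in NF Types, and 14 of 14 cardiomyocyte markers were at least 2-fold lower in AF cycling wells. The same markers set the falls described above, and their part in the origin difference was not tested. The other 2 were Cspg4 (NG2), a proteoglycan of pericytes and progenitor cells, at 14.1 against 87.8 CPM, and the noncoding transcript 9330020H09Rik at 11.2 against 83.4 CPM.

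Matrix and identity genes were compared by origin in cycling wells too. Over all genes, 14% were at least 2-fold higher in AF and 4.17% lower. Types lay above without overlap for 4.52% of all genes and below for 2.07%. The 2-fold counts of matrix genes were near these shares. Of 32 matrix genes, 6 were at least 2-fold higher in AF and 2 lower, 4 lay above NF without overlap, and the median log2 ratio was 0.22. Of 18 identity genes, 7 were at least 2-fold higher and 2 lower, 2 lay above and 1 below without overlap, and the median was 0.58. Col3a1, the type III collagen chain, was between 342 and 1077 CPM in AF Types and between 52.6 and 199.7 CPM in NF Types. Dcn was between 359 and 1982 CPM in AF Types and between 81.6 and 190.4 CPM in NF Types. Timp1 was between 1911 and 2486 CPM against 493 to 1062 CPM. Thy1 was lower in AF, at 93.5 against 259 CPM, and Postn at 145 against 563 CPM, with 24.1 and 26.8 CPM in AF0_1 and AF0_2 and at least 276 in every other Type.

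Some sums moved with the 0 in the well name. Acute phase and chemokine genes summed to 22375 CPM in AF1, 29514 in AF2, 26439 in NF1 and 21073 in NF2, and to 4701 in AF0_1, 7079 in AF0_2, 3338 in NF0_1 and 3185 in NF0_2. Ccl2, the monocyte chemoattractant, was between 13605 and 19494 CPM in the former and between 2172 and 3453 CPM in the latter. By origin, 8 of the 12 genes of this list were at least 2-fold higher in AF and 0 lower, the Types of 7 did not overlap, and the median log2 ratio was 2.74. Ccng1, a p53-induced cyclin, was between 88.6 and 169 CPM in AF1, AF2, NF1 and NF2 and between 383 and 727 CPM in the 0 Types. The reference wells of NF0_1 and NF0_2, at 1030 and 1061 CPM of Ccl2, were likewise below those of the other Types, at 9364 to 16472 CPM.

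**Figure D5:**
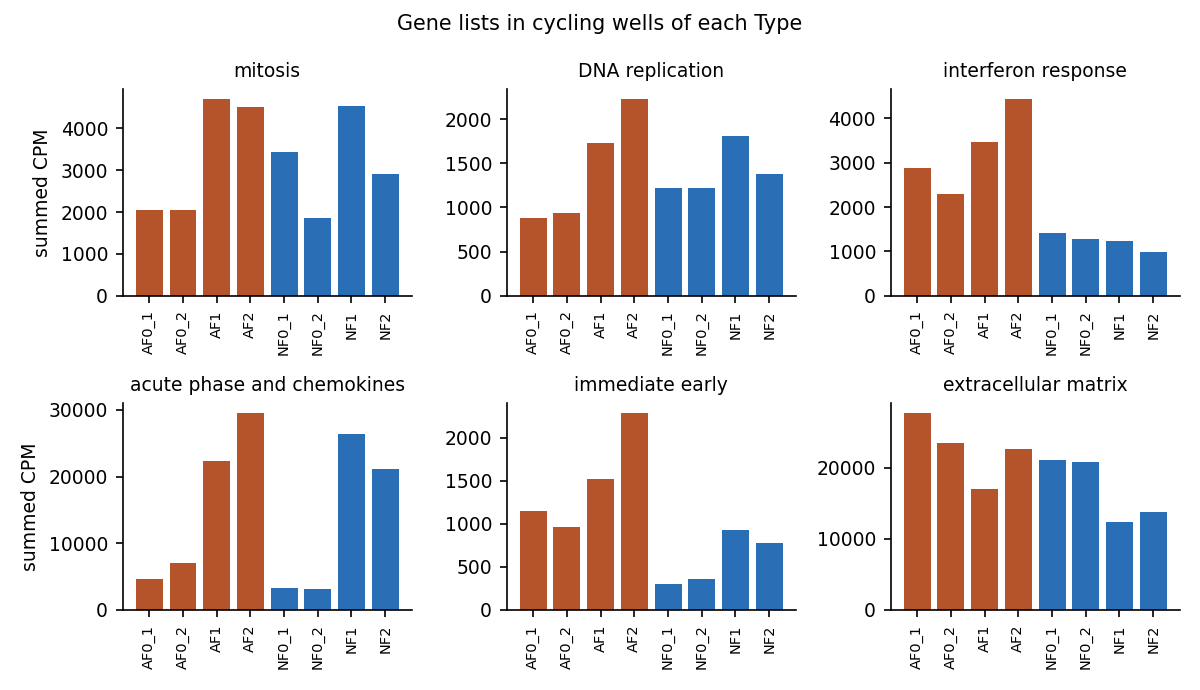
Summed CPM (y axes, each from 0) of 6 gene lists in the cycling wells of each Type (x axes), AF and NF in different colours. Interferon response genes are higher in all 4 AF Types than in any NF Type, and acute phase and chemokine genes are higher in AF1, AF2, NF1 and NF2 than in the 0 Types.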

How the data were processed

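Single cells were dispensed on ICELL8 nanowell chips. For each chip, a table of raw counts (UMIs by well and gene) was deposited by the authors, together with a report of read pairs and a name for each well. Per the study's methods and the submitters' processing notes, read pairs with a valid barcode and UMI were trimmed and screened for contaminants, aligned to mm10 with STAR 2.5.2b and assigned to Ensembl genes with featureCounts of Subread 1.4.6-p1. Bulk counts of cardiomyocytes were deposited too and not used here.

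Gene identifiers were matched to symbols for all but 538 of 28360 gene columns. A further 34 mitochondrial and 79 spike-in columns were left out of totals, which lowers depth slightly in wells rich in mitochondrial RNA. Of 1053 wells of the 8 Types, 9 held under 500 genes. UMIs were summed over wells and scaled to CPM, which lets deep wells weigh more. Genes were kept with at least 200 UMIs over all wells and detection in 10 wells, without the 8 markers. A gene with fewer than 3 UMIs in a group was set to 3, and no ratio was given where both groups held 3 or fewer or where that bound pointed against the CPM, a rule set after first results were seen. Type ratios were averaged on the log2 scale where at least 3 Types gave one, and 8931 genes had one in all 6 Types. Share intervals are Clopper-Pearson and ratio intervals exact conditional binomial, both at 95%. The fold procedure was tested on simulated data. Python 3.11.15, NumPy 2.4.6, pandas 2.3.3 and SciPy 1.17.1 were used.

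Genes named are the 12 largest rises and 12 largest falls with 1 direction in all 6 Types and at least 50 CPM in the higher group, the 8 highest and 8 lowest in AF against NF with Types that do not overlap, list members and genes of the study's text. The members, lists and rules were chosen with earlier results of these data known. Promoters came from RefSeq, first listed start per gene.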

Additional observations from a re-analysis of the deposited data

Results flagged for a closer look

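The chip of cardiomyocytes, which no comparison of the report uses, also held wells that met the marker rule: 146 of 1344 kept wells, or 10.9% (exact 95% interval 9.25 to 12.7), against 0 of the 10 negative-control wells of both chips. The share was highest in AFNCM2, at 19.2% (13.9 to 25.4), and lowest in NCM0_1, at 3.45% (0.947 to 8.59). These wells held a median of 38764 UMIs, against 18660 over all kept wells of that chip. What cells they were was not analysed here.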

How the results depend on the processing

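The share of cycling wells was 42.1% with 4 markers required, 22.1% with 6, 29.3% with 20 marker UMIs, 14.4% after thinning and 37.0% under the looser thinned rule. In AF wells it was 56.6%, 30.8% and 15.8% with 4 markers, 6 markers and thinning, and in NF wells 31.7%, 15.8% and 13.3%, and 29.8% under the looser rule. Of the shares of single Types, 28 stayed within the interval of their main value and 20 did not. Genes at least 2-fold higher numbered 482 with all other kept wells as reference, 2381 at 1.5-fold, 2085 with a filter of 50 UMIs and 2533 with no filter beyond 1 UMI. Lower genes numbered 235, 1067, 957 and 2132 in that order, and 692 with Types weighted equally, 687 in wells of 20000 to 80000 UMIs and 674 in Types with 5 reference wells. With Types weighted equally 861 were higher. Leaving out each Type in turn gave 1032 to 1360 higher and 433 to 508 lower. The DNA replication median was 0.80 and the mitosis median 1.56 with all other wells as reference, and the mitosis median 2.59 with Types weighted equally, where the epicardial median turned to -0.22. Genes lower in AF cycling wells numbered 1153 in AF1 and AF2 against NF1 and NF2 and 1095 between the 0 Types. For these shifts the cause was not tested. The depth window, the Types with 5 reference wells, each Type left out, the looser rule and the exclusion of wells with other cell markers were chosen after seeing the data. No paired analysis was possible because all wells came from 1 library and no comparison was tested.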
